A study of Mus musculus with 8 samples.

Results

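The genes described here are the orphan, adhesion and serotonin G protein-coupled receptors of colonic lamina propria macrophages. They were taken by name: every gene of the count table whose symbol starts with Gpr and a digit, with Gprc, with Adgr or with Htr and a digit, except Gpr35 itself, which was used to sort the cells. The rule found 73 genes among 14980 listed, and 61 of them had enough counts to be tested. The 8 libraries come from 4 male mice, and both populations of each mouse were sequenced. Both groups were sorted as MHCII+CD64+ cells, the surface gate for intestinal macrophages, from digested colonic lamina propria after removal of the epithelium. The groups differ in surface GPR35: GPR35-positive cells (n = 4) carried it and GPR35-negative cells (n = 4) did not. The labels give no strain, age, genetic change or treatment for either group. Replicates 1 to 4 stand for the 4 animals, so that the same number in both groups is the same mouse.

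G protein-coupled receptors pass a signal from outside the cell to heterotrimeric G proteins, whose alpha and beta-gamma subunits then act on adenylate cyclases, phospholipases and other effectors. Adhesion receptors carry a long extracellular part that is cut from the membrane-spanning part and binds matrix or neighbouring cells, and several mark myeloid cells. Other genes of the set answer lysophospholipids, fatty acids, oxysterols, protons or serotonin, and many of those with a Gpr number still have no agreed ligand. In the gut wall such receptors sit where lipids, microbial metabolites, acid and serotonin from enterochromaffin cells reach macrophages.

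Library totals were 33.8 to 48.6 M counts in GPR35-positive and 16.0 to 30.1 M in GPR35-negative libraries. Levels are given as CPM, read counts relative to the library's TMM-scaled total. Gpr35 was at 91.9, 56.2, 69.0 and 76.1 CPM in GPR35-positive replicates 1 to 4 and at 3.21, 1.13, 2.84 and 4.69 CPM in the GPR35-negative ones, so the receptor's RNA followed the sort in every animal. The sum of 20 macrophage identity genes, among them Csf1r, Cd68 and C1qa, was 52958, 57870.1, 47999 and 53858 CPM in GPR35-positive and 23921, 11748, 5342 and 7306 CPM in GPR35-negative libraries, and 20 of 20 were higher in GPR35-positive cells. Genes of plasma and B cells summed to 1214 to 2652 CPM in GPR35-positive and 73492 to 143927 CPM in GPR35-negative libraries. Of those tested 11 of 11 were lower in GPR35-positive cells, where 18.4% of all tested genes were higher and 19.5% lower. The GPR35-negative libraries thus held high levels of genes from cells that the labelled gate should not hold, and none of these marker lists had a gene at 0 in every library of a group. The sum of dendritic cell genes went the other way, at 735 to 1044 CPM in GPR35-positive and 205 to 428 CPM in GPR35-negative libraries. Of 10 tested, 3 were higher in GPR35-positive cells (30%, against 18.4% of all tested genes), 0 lower and 7 not past. Irf8 (583 against 142 CPM on average) and Cd209a (195 against 7.49 CPM) made up most of the mean sum of 952 CPM in GPR35-positive libraries. Ccr7 was the most abundant of the 7 not past and was lower on average, at 41.0 against 79.2 CPM. The sum therefore does not describe the typical gene of this list. How far these levels set the values of the receptors was not tested. In bulk RNA of this kind, fewer cells of a type and less RNA per cell cannot be told apart. To read the receptors against macrophage RNA, each library was also scaled to the 20 identity genes. That scaling moved the median log2 fold change of all tested genes from -0.049 to -2.63, and identity-scaled values below are to be read against that shift.

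**Figure D1:**
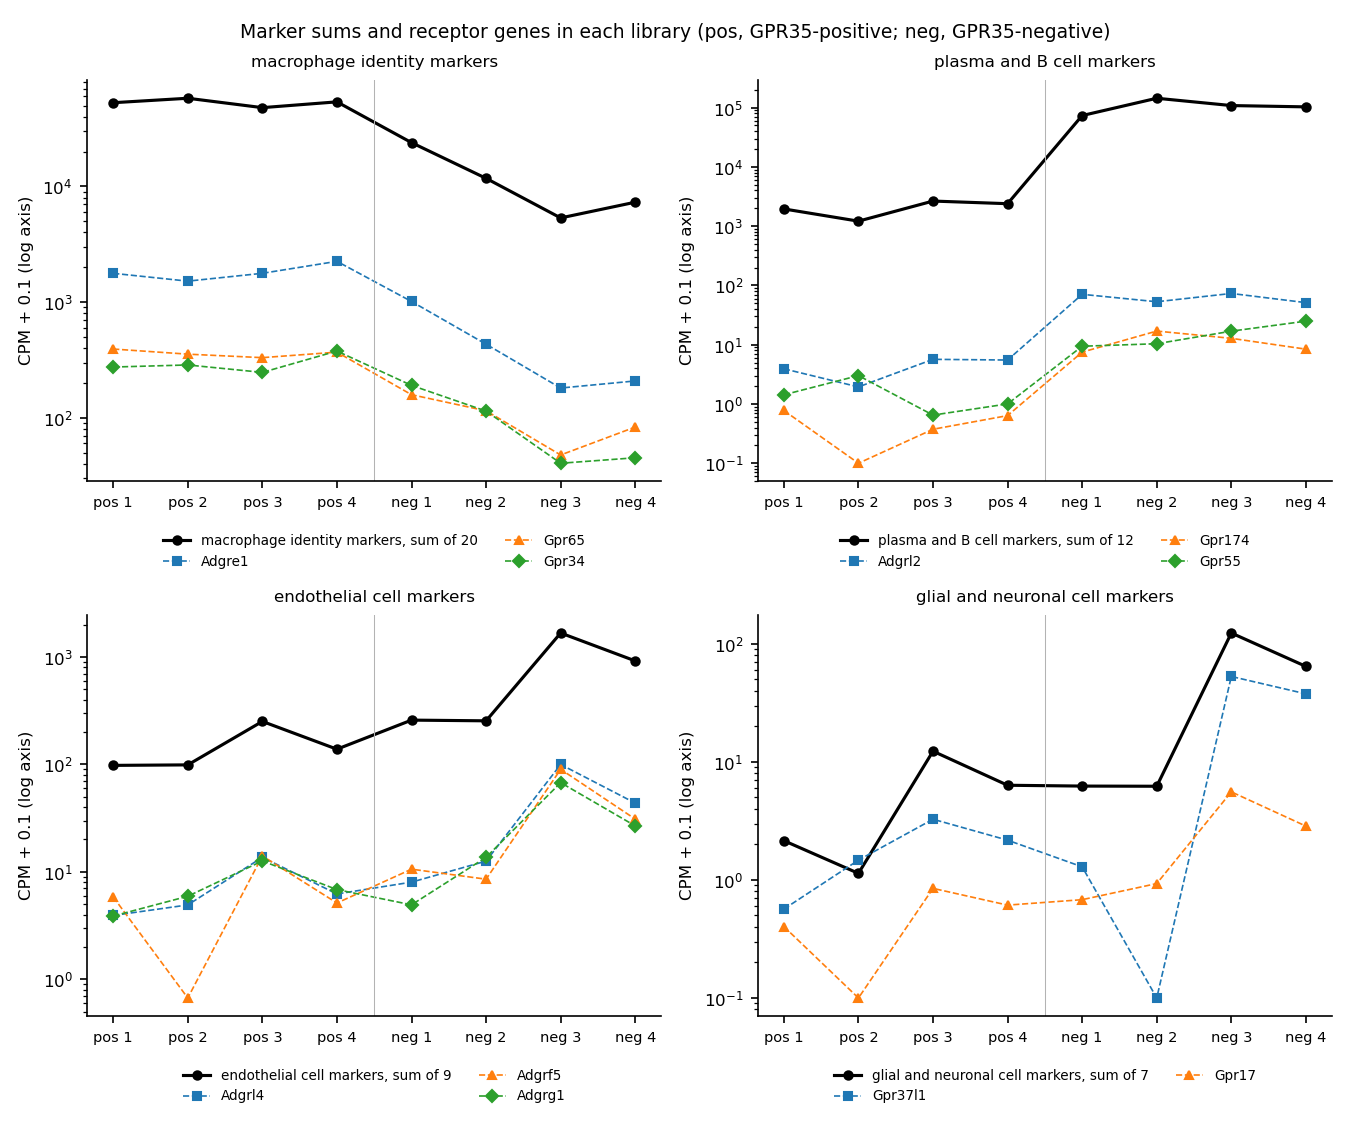
Summed CPM of 4 marker lists (black) and CPM of receptor genes (dashed) in each of the 8 libraries, as CPM + 0.1 on a logarithmic axis, with 1 panel per list, 1 point per library and lines only to guide the eye. Macrophage identity genes summed to at least 47999 CPM in every GPR35-positive library and at most 23921 CPM in every GPR35-negative one, while plasma and B cell genes summed to at most 2652 CPM and at least 73492 CPM. Endothelial and glial sums, Adgrl4, Adgrf5, Adgrg1, Gpr37l1 and Gpr17 were highest in GPR35-negative replicates 3 and 4.

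A few genes led the receptor RNA of both sorted populations, of which the GPR35-negative one held much RNA of other cells by the markers above. The 73 members together took 0.438 ± 0.0275% of counts in GPR35-positive and 0.274 ± 0.0453% in GPR35-negative libraries (SD, n = 4), and the ranges did not overlap. Adgre1, which encodes the macrophage antigen recognised by the F4/80 antibody, alone made up 37.7 ± 4.29% and 16.9 ± 11.05% of the members' counts. Levels of different genes were compared as CPM per kilobase of the deposited gene length. On that scale Adgre1 led in GPR35-positive cells at 564 ± 94.3 (SD, n = 4), followed by Adgre5 at 195 ± 16.9, the proton sensor Gpr65 at 169 ± 12.1, the lysophosphatidylserine receptor Gpr34 at 156 ± 29.8 and the oxysterol receptor Gpr183 at 103 ± 13.9. The library ranges of Adgre5 and Gpr65 overlapped, as did those of Gpr65 and Gpr34, whereas Adgre1 lay above and Gpr183 below all of them. In GPR35-negative cells Adgre5 led at 180.2 ± 10.5, Adgre1 followed at 141 ± 119 with a wide spread, and Gpr183 (64.7 ± 25.9), Gpr171 (55.2 ± 22.8), Gpr108 (52.2 ± 4.41), Gpr34 (51.3 ± 37.2) and Gpr65 (47.0 ± 21.9) did not stand apart from each other beyond theirs.

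**Figure D2:**
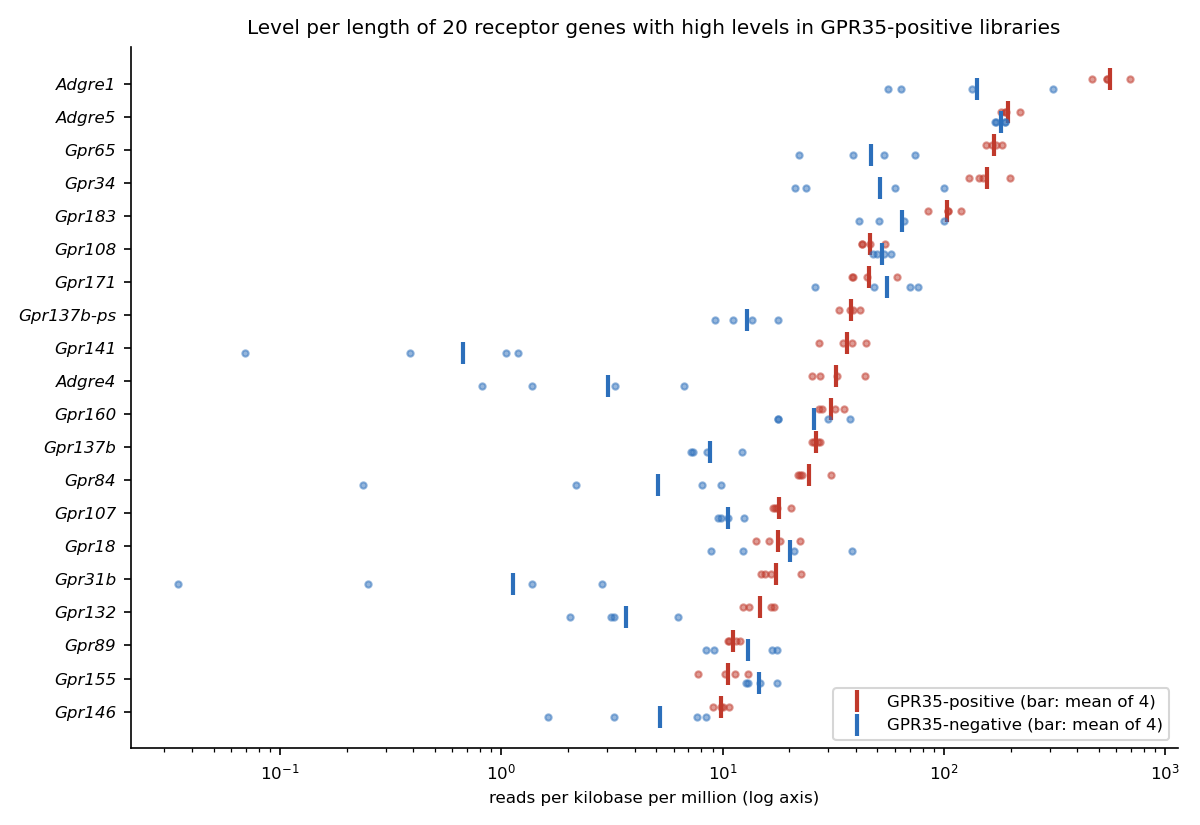
CPM per kilobase of gene length, on a logarithmic axis, of 20 members with high mean levels in GPR35-positive cells; points are the 4 libraries of each group and bars their means. Adgre1 leads in GPR35-positive cells and Adgre5 in GPR35-negative cells.

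Of the 61 tested members, 27 differed between the populations at an edgeR adjusted p under 0.05, or 44.3%, where 38.0% of all tested genes did. There were 14 higher in GPR35-positive cells (23.0%, against 18.4% of all tested genes) and 13 lower (21.3%, against 19.5%). At least 2-fold differences were seen in 12 higher and 13 lower members, against 10.9% and 14.1% of all tested genes. The members' median log2 fold change was 0.036 and that of all tested genes -0.049. These counts are from a test that left out the pairing by animal. A block for the animal gave 30 members past the threshold (15 higher, 15 lower), against 5580 of the 14193 tested genes, and kept 24 of the 27 calls. Without replicate 3 there were 11 higher and 8 lower members, and without replicate 4 there were 12 and 7. Over all tested genes the main test gave 2613 higher and 2774 lower. That became 1569 and 1712 without replicate 3, and 1625 and 1681 without replicate 4. All 27 differed in 1 direction in all 4 animals, as did 2588 of the 2613 higher and 2730 of the 2774 lower genes of the whole table. The CPM ranges of the groups did not overlap for 26 of these 27, nor for 2464 of those higher and 2459 of those lower genes. Among the 61 tested members 32 had ranges that did not overlap (52.5%, against 42.1% of all tested genes). With identity scaling 4 members were higher in GPR35-positive cells and 38 lower, against 73 and 12237 of all tested genes. Among these 4 were Gpr141, Htr7 and Adgre4.

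**Figure D3:**
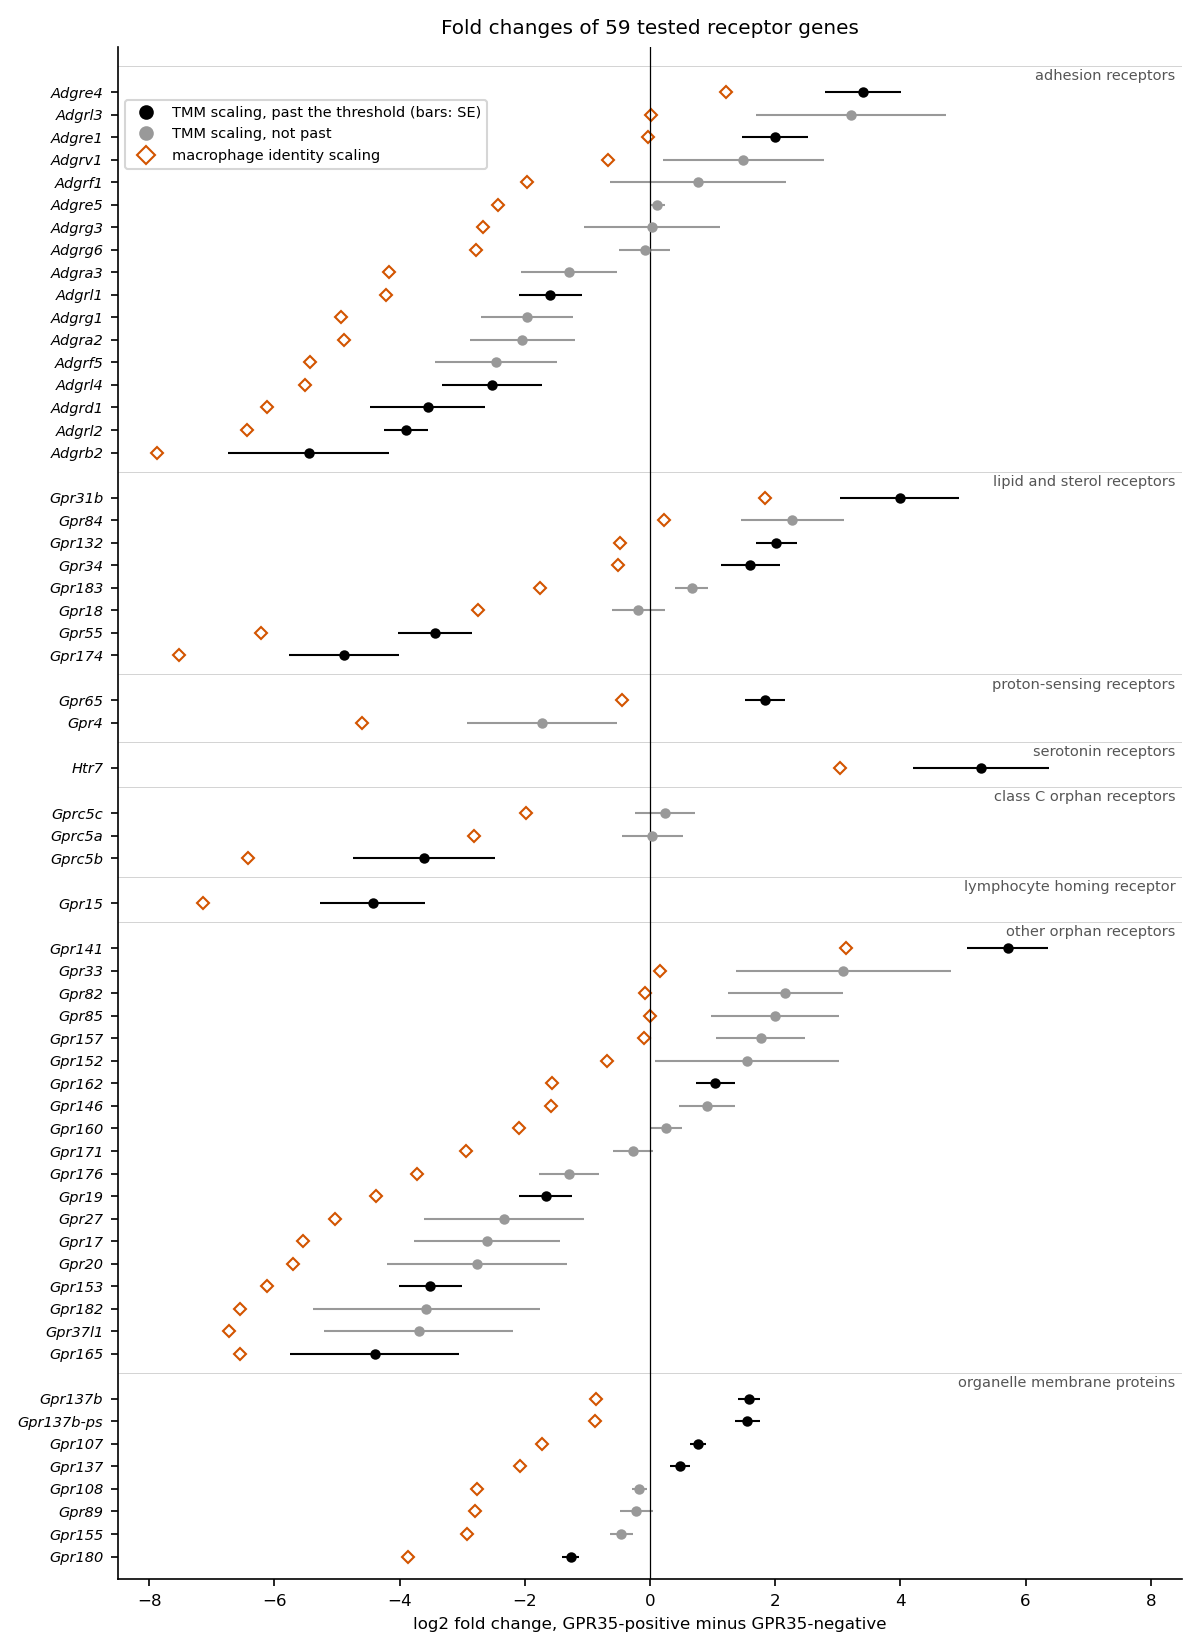
Log2 fold changes of 59 of the 61 tested members, GPR35-positive minus GPR35-negative, each with its standard error from edgeR, grouped by role; black points passed the threshold, grey ones did not, and open diamonds show identity scaling. The higher members reach from 0.48 (Gpr137) to 5.71 (Gpr141) and the lower ones from -1.27 (Gpr180) to -5.45 (Adgrb2), and the diamonds of 9 higher members lie below 0.

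The promoters of these 3 genes are shown because they stayed higher in GPR35-positive cells when the libraries were set equal in macrophage RNA, and that of Adgrl2 is shown beside them as the adhesion receptor with the smallest adjusted p among the lower ones. Each runs from 250 bases before to 50 bases after an annotated start, 300 bases in all, from RefSeq on GRCm38.p6. The Gpr141 window lies at chr13:19824208-19824507, minus strand, and its capitals mark the letters TATAAA. The Htr7 window lies at chr19:36057311-36057610, minus strand, and it held no searched motif, so it is in lower case. The Adgre4 window lies at chr17:55749734-55750033, plus strand, and its capitals mark the PU.1 motif GAGGAAGT on the opposite strand. The Adgrl2 window lies at chr3:148954586-148954885, minus strand, with TATAAA on the opposite strand in capitals.
Gpr141: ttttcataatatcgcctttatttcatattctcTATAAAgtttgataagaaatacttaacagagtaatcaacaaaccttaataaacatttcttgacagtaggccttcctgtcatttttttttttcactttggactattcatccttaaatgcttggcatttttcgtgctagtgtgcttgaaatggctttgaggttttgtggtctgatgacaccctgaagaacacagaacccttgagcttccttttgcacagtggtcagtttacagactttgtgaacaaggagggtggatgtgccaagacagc
Htr7: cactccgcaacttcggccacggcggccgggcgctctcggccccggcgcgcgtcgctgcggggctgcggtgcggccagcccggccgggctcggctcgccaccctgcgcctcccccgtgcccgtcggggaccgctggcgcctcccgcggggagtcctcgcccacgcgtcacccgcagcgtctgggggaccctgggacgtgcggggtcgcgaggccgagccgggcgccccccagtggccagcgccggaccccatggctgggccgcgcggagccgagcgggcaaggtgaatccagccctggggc
Adgre4: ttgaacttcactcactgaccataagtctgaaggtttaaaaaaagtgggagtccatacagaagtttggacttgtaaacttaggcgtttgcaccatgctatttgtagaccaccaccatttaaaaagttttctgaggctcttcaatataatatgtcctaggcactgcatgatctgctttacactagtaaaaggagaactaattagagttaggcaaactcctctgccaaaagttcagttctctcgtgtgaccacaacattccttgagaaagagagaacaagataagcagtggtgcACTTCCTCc
Adgrl2: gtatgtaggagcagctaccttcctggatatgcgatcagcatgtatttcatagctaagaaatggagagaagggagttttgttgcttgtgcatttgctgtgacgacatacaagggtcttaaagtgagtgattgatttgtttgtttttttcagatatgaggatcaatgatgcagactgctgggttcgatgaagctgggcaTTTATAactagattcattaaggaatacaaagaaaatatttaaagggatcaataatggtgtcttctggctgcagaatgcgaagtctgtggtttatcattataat

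The 4 windows differ widely in base composition. Htr7 had 81.0% GC and 46 CpG pairs, whereas Gpr141 had 37.3% GC and 2 CpG, Adgre4 40.3% and 2, and Adgrl2 38.0% and 4. The median over the promoters of all tested genes was 60.3% GC and 19 CpG. The RefSeq table held a promoter for 52 of the 73 members. Searched on both strands, GAGGAAGT, a site of the macrophage factor PU.1, was in a promoter of 3 of the 9 higher members with one (Adgre4, Gpr31b and Gpr137) and of 1 of 12 lower members (Gpr55), against 3.99% of all tested genes with a promoter. The ETS-IRF composite, GGAA and GAAA with any 2 bases between them, was in 0 of the 9 higher and 0 of the 12 lower members and in 3.01% of all tested genes with a promoter. The AP-1 motif TGANTCA was in 0 higher members and 1 lower member, Gpr15, against 6.57%. TATAAA was in 2 higher members (Gpr141, Gpr65) and 2 lower ones (Adgrl2, Gpr165), against 9.41%. The PU.1 motif and the composite share the letters GGAA, so a site can count for both, and a match describes letters, not binding.

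Of the serotonin receptors, Htr7 was the only one with enough counts to test, and its RNA was present almost entirely in GPR35-positive cells. Htr7 encodes a receptor that couples to Gs and raises cyclic AMP, and it lies on chromosome 19, 35958415 to 36058133 (GRCm38.p6). It was at 32.7, 20.6, 14.2 and 12.3 CPM in GPR35-positive replicates 1 to 4 and at 1.19, 0, 0.759 and 0 CPM in the GPR35-negative ones. The lowest GPR35-positive library was thus above the highest GPR35-negative one, and GPR35-negative replicates 2 and 4 had no count. Htr7 differed by 5.28 ± 1.09 on the log2 scale (SE; edgeR adjusted p = 0.00570), which became 3.03 once the libraries were scaled to identity genes (adjusted p = 0.0195). With limma voom the adjusted p was 0.0617, which missed the threshold. Htr2b, a Gq-coupled serotonin receptor, had too few counts to test, with at most 1.22 CPM in any library. Of 6 tested genes that make, carry or break down serotonin, 2 passed (33.3%, against 38.0% of all tested genes). Both were lower in GPR35-positive cells, Maob (-3.55 ± 0.69 on the log2 scale, adjusted p = 0.00447), a mitochondrial amine oxidase, and Slc18a2 (-2.29 ± 0.74, adjusted p = 0.0377), which loads monoamines into vesicles.

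Of 18 tested adhesion receptors 3 were higher in GPR35-positive cells (16.7%, against 18.4% of all tested genes), 5 were lower (27.8%, against 19.5%) and 10 did not pass. With identity scaling 2 were higher and 11 lower, where 12237 of the 14193 tested genes were lower. Without that scaling the higher ones included Adgre4 and Adgre1, which belong to the EGF-module subfamily of myeloid cells. Adgre4, on chromosome 17, 55749984 to 55853662, was at 95.6, 153, 88.8 and 114 CPM in GPR35-positive and 23.3, 2.85, 4.80 and 11.3 CPM in GPR35-negative replicates 1 to 4. Relative to their mean, its GPR35-negative libraries spread more than its GPR35-positive ones, with replicate 1 the highest, and the groups did not overlap. Adgre4 differed by 3.41 ± 0.60 on the log2 scale (SE; edgeR adjusted p = 0.00294), with an identity-scaled value of 1.22 (adjusted p = 0.0315). Adgre1, on chromosome 17, 57358581 to 57483529, was at 1773, 1518, 1774 and 2251 CPM in GPR35-positive and 1012, 432, 181 and 208 CPM in GPR35-negative cells. GPR35-negative replicate 1 was far above the other 3 of its group, as was the macrophage identity sum in that library. Adgre1 differed by 2.0 ± 0.52 on the log2 scale (SE; edgeR adjusted p = 0.0163), with an identity-scaled value of -0.038 (adjusted p = 0.933), close to 0 while the median gene was at -2.63. Its call ended without replicate 2 (adjusted p = 0.0673), without replicate 3 (adjusted p = 0.0568) and without replicate 4 (adjusted p = 0.0855).

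Adgre5, which encodes CD97, a leukocyte receptor for CD55, was the most abundant member that did not pass. It was at 622, 716, 615 and 590.4 CPM in GPR35-positive and 616, 615, 554 and 559 CPM in GPR35-negative replicates 1 to 4. All 8 libraries lay between 554 and 716 CPM and the groups overlapped. Adgre5 had a fold change of 0.12 ± 0.12 on the log2 scale (SE; edgeR adjusted p = 0.476). Exons of Adgre5 share 23.8% of their bases with Ddx39 on the opposite strand, and the library method does not mark strand, so part of this count may belong to either gene. The partner CD55 itself, encoded by Cd55, was lower in GPR35-positive cells (-4.96 ± 0.57; adjusted p = 4.10e-04).

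**Figure D4:**
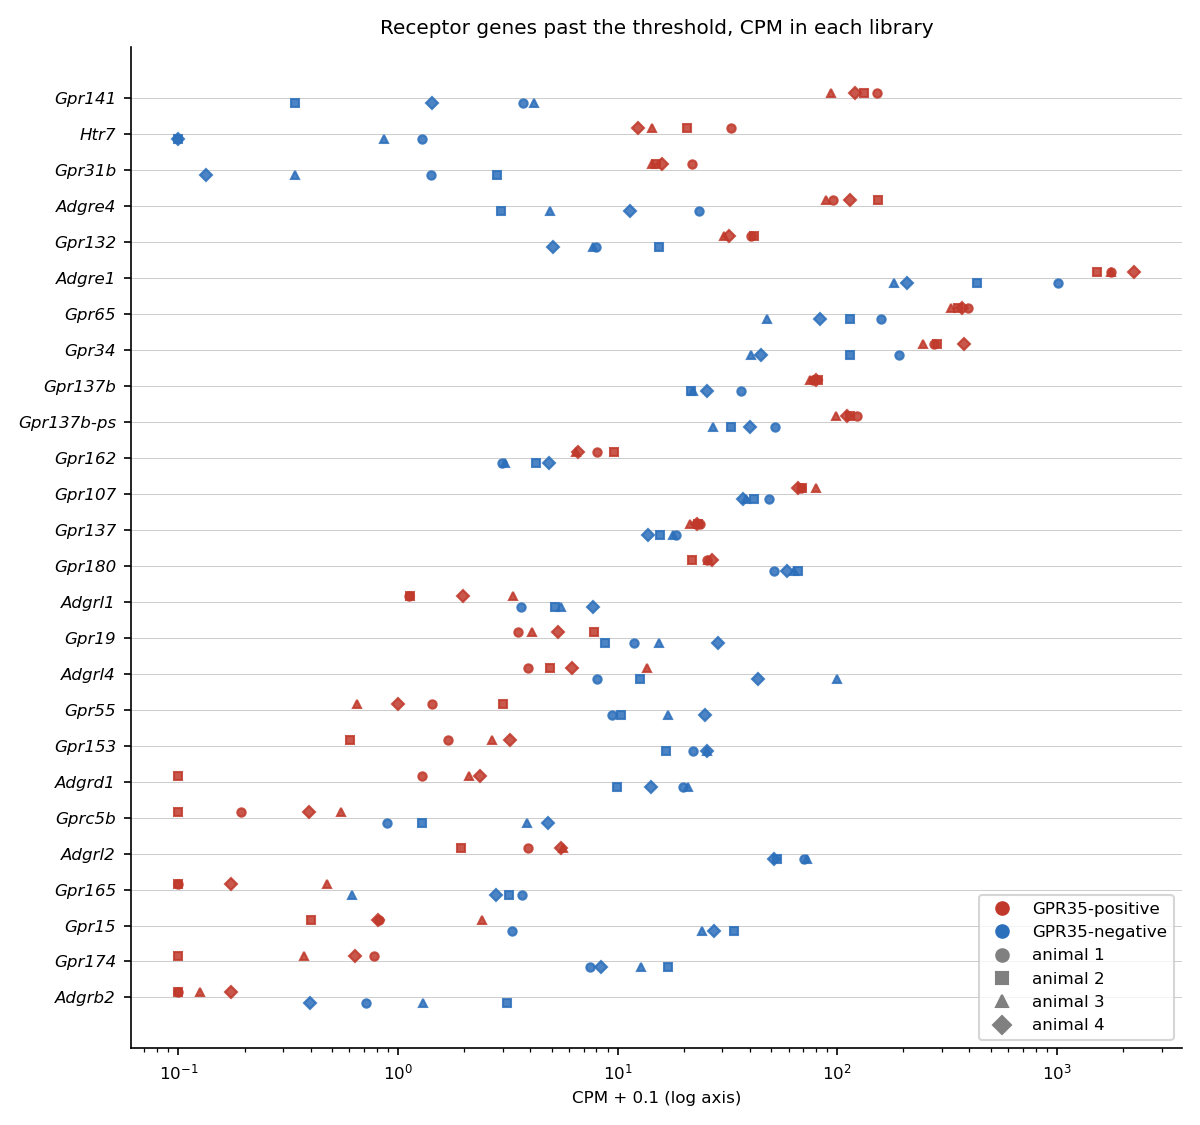
CPM + 0.1 in each library, on a logarithmic axis, of 26 of the 27 members that passed the threshold. Points are libraries, coloured by group and shaped by animal (animals 1 to 4 are replicates 1 to 4). GPR35-negative replicates spread widely for Adgre1, Gpr34 and Gpr15, and the groups of Adgrl4 overlap.

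Of the latrophilins, which bind teneurins and FLRT proteins at contacts between cells, 2 were lower in GPR35-positive cells. Adgrl2, on chromosome 3, 148815586 to 148989096, was at 3.82, 1.84, 5.57 and 5.41 CPM in GPR35-positive and 70.7, 53.0, 73.1 and 51.2 CPM in GPR35-negative replicates 1 to 4. No GPR35-negative library was below 51.2 CPM and no GPR35-positive one above 5.57 CPM. Adgrl2 differed by -3.89 ± 0.35 on the log2 scale (SE; edgeR adjusted p = 1.37e-04). Adgrl1 was at 1.03, 1.04, 3.24 and 1.88 CPM in GPR35-positive and 3.52, 5.11, 5.40 and 7.65 CPM in GPR35-negative cells, with GPR35-positive replicate 3 nearest to the other group and no overlap. Adgrl1 differed by -1.59 ± 0.50 on the log2 scale (SE; edgeR adjusted p = 0.0349), and the call was lost in 9 of the 12 fits that left out an animal or a library (adjusted p up to 0.153) and held only without replicate 3 (adjusted p = 0.0454), without GPR35-positive replicate 3 (adjusted p = 0.0199) and without GPR35-negative replicate 1 (adjusted p = 0.0320). Adgrl3, the third of them, went the other way without passing, at 6.59 ± 2.29 against 0.707 ± 1.39 CPM (SD, n = 4; log2 fold change 3.21 ± 1.51, adjusted p = 0.122), and GPR35-negative replicate 3 had 2.80 CPM while the other 3 had at most 0.0306 CPM. With the animal as a block its adjusted p was 0.0359.

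Adgrl4, an endothelial receptor also called ELTD1, was at 3.82, 4.82, 13.6 and 6.12 CPM in GPR35-positive and 7.92, 12.5, 99.8 and 43.6 CPM in GPR35-negative replicates 1 to 4. The ranges overlapped, and GPR35-negative replicates 3 and 4 were the highest. Adgrl4 differed by -2.53 ± 0.80 on the log2 scale (SE; edgeR adjusted p = 0.0346), from -3.05 to -1.59 when an animal or a library was left out, and the call was lost in 8 of the 12 fits that left out an animal or a library (adjusted p up to 0.141) and held only without replicate 1 (adjusted p = 0.0375), without GPR35-positive replicate 3 (adjusted p = 0.0326), without GPR35-negative replicate 1 (adjusted p = 0.0126) and without GPR35-negative replicate 2 (adjusted p = 0.0289). Adgrf5 (log2 fold change -2.46, adjusted p = 0.0752), an endothelial and lung receptor, and Adgrg1 (-1.96, adjusted p = 0.0618), which binds collagen III, had their highest values in the same 2 GPR35-negative libraries. With the animal as a block both passed (adjusted p = 0.00893 for Adgrf5 and 0.0210 for Adgrg1). The 9 tested endothelial markers summed to 258, 254, 1673 and 919.8 CPM in GPR35-negative replicates 1 to 4 and to 97.9, 98.9, 251 and 138 CPM in the GPR35-positive ones. Of these markers 4 of 9 were lower in GPR35-positive cells (44.4%, against 19.5% of all tested genes), and none was at 0 in all libraries of a group. The part of endothelial RNA in the values of Adgrl4, Adgrf5 and Adgrg1 was not tested.

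Adgrd1, also called GPR133, a Gs-coupled adhesion receptor, was at 1.19, 0, 2.0 and 2.27 CPM in GPR35-positive and 19.7, 9.81, 20.9 and 14.1 CPM in GPR35-negative replicates 1 to 4. It had no count in GPR35-positive replicate 2, and the groups did not overlap. Adgrd1 differed by -3.55 ± 0.92 on the log2 scale (SE; edgeR adjusted p = 0.0158), and the call ended without replicate 1 (adjusted p = 0.0755), without replicate 3 (adjusted p = 0.0660) and without replicate 4 (adjusted p = 0.0587). Adgrb2, known from brain, was near its detection limit with 0.0245 CPM on average in GPR35-positive and 1.29 ± 1.22 CPM in GPR35-negative cells (log2 fold change -5.45 ± 1.29, adjusted p = 0.0104), and its call ended without replicate 3 (adjusted p = 0.0608). In the same libraries fibroblast and muscle markers summed to 159 to 1097 CPM in GPR35-positive and 3163 to 7399 CPM in GPR35-negative libraries. Of these markers 8 of 10 were lower in GPR35-positive cells (80%, against 19.5% of all tested genes). The part of fibroblast and muscle RNA in the values of Adgrd1 and Adgrl2 was not tested. The other adhesion receptors not past the threshold, each with log2 fold change and adjusted p, were Adgra2 (-2.04, 0.0839), Adgra3 (-1.30, 0.206), Adgrv1 (1.49, 0.382), Adgrf1 (0.77, 0.689), Adgrg6 (-0.084, 0.887) and Adgrg3 (0.037, 0.982).

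Receptors for lipids and sterols were tested for 8 members. In GPR35-positive cells 3 were higher (37.5%, against 18.4% of all tested genes), 2 lower (25%, against 19.5%) and 3 not past. The higher ones were Gpr31b, Gpr132 and Gpr34, and the lower ones Gpr174 and Gpr55; with identity scaling Gpr31b kept its sign, and Gpr132 and Gpr34 turned negative. Gpr31b, the mouse gene for a receptor that responds to 12-HETE and to bacterial lactate and pyruvate, was at 21.8, 14.9, 14.3 and 15.9 CPM in GPR35-positive and 1.31, 2.73, 0.240 and 0.0332 CPM in GPR35-negative replicates 1 to 4. The GPR35-positive libraries had at least 14.3 CPM and the GPR35-negative ones at most 2.73 CPM. Gpr31b differed by 3.99 ± 0.95 on the log2 scale (SE; edgeR adjusted p = 0.0107). With identity scaling it was 1.84 (adjusted p = 0.0712), and its call ended without replicate 1 (adjusted p = 0.0507). In all, 87.6% of the 50-base windows of its transcript also occur in another annotated transcript, so its counts are uncertain.

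Gpr132, a receptor linked to lysophospholipids and oxidised fatty acids in lymphocytes and macrophages, was at 40.2, 41.8, 30.2 and 32.2 CPM in GPR35-positive and 7.86, 15.3, 7.63 and 4.95 CPM in GPR35-negative replicates 1 to 4. The groups did not overlap, with a gap from 15.3 to 30.2 CPM. Gpr132 differed by 2.02 ± 0.33 on the log2 scale (SE; edgeR adjusted p = 0.00205), with an identity-scaled value of -0.48, against -2.63 for the median gene. Gpr34, a receptor for lysophosphatidylserine, was at 274, 286, 247 and 377 CPM in GPR35-positive and 190.4, 114, 40.3 and 45.0 CPM in GPR35-negative cells. GPR35-negative replicates 3 and 4 were the lowest and replicate 1 the closest to the GPR35-positive group. Gpr34 differed by 1.60 ± 0.47 on the log2 scale (SE; edgeR adjusted p = 0.0270), with an identity-scaled value of -0.51, and the call was lost in 7 of the 12 fits that left out an animal or a library (adjusted p up to 0.124) and held only without replicate 1 (adjusted p = 0.00914), without GPR35-positive replicate 2 (adjusted p = 0.0495), without GPR35-positive replicate 3 (adjusted p = 0.0422), without GPR35-negative replicate 1 (adjusted p = 0.00327) and without GPR35-negative replicate 3 (adjusted p = 0.0478).

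Of the lysophospholipid receptors lower in GPR35-positive cells, Gpr174, which also answers lysophosphatidylserine and is known from lymphocytes, was at 0.676, 0, 0.275 and 0.537 CPM in GPR35-positive and 7.40, 16.9, 12.7 and 8.31 CPM in GPR35-negative replicates 1 to 4. GPR35-positive libraries reached at most 0.676 CPM, and GPR35-negative ones had at least 7.40 CPM. Gpr174 differed by -4.89 ± 0.88 on the log2 scale (SE; edgeR adjusted p = 0.00316). Gpr55, a receptor for lysophosphatidylinositol, was at 1.33, 2.91, 0.549 and 0.902 CPM in GPR35-positive and 9.32, 10.3, 16.8 and 24.9 CPM in GPR35-negative cells, with GPR35-negative replicate 4 the highest. Gpr55 differed by -3.44 ± 0.58 on the log2 scale (SE; edgeR adjusted p = 0.00246). Gpr34 and Gpr174, which share the ligand lysophosphatidylserine, had log2 fold changes of opposite sign, but with identity scaling both were negative (-0.51 and -7.52), and the call of Gpr34 was lost in 7 of 12 fits that left out an animal or a library.

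Gpr183, also called EBI2, which guides immune cells along oxysterol gradients, was at 249.8, 306, 307 and 349 CPM in GPR35-positive and 194, 296, 122 and 150.2 CPM in GPR35-negative replicates 1 to 4. The groups overlapped through GPR35-negative replicate 2. Gpr183 had a fold change of 0.67 ± 0.26 on the log2 scale (SE; edgeR adjusted p = 0.0734), and without replicate 2 it was 1.0 (adjusted p = 0.0248). Gpr84, a receptor for medium-chain fatty acids in myeloid cells, was at 38.0 ± 6.61 against 7.88 ± 7.14 CPM (SD, n = 4; log2 fold change 2.27 ± 0.82, adjusted p = 0.0561) and passed with the animal as a block (adjusted p = 0.0343). Its counts are uncertain, since 37.8% of the 50-base windows of its transcript also occur in Gm49482. Gpr18 did not pass (log2 fold change -0.18, adjusted p = 0.752). All 4 tested enzymes that make or break down the oxysterol ligands of Gpr183 passed, where 38.0% of all tested genes did. Ch25h (0.83 ± 0.29; adjusted p = 0.0479; -1.51 identity-scaled), Cyp27a1 (1.58 ± 0.45; adjusted p = 0.0222; -0.56 identity-scaled) and Hsd3b7 (0.99 ± 0.28; adjusted p = 0.0218; -1.55 identity-scaled) were higher in GPR35-positive cells, and Cyp7b1 (-2.77 ± 0.67; adjusted p = 0.0111) was lower. Ch25h makes a hydroxycholesterol that Cyp7b1 hydroxylates to the ligand, and Hsd3b7 breaks the ligand down. With the block, Ch25h lost its call (adjusted p = 0.0599).

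Of the proton-sensing receptors, which raise cyclic AMP or calcium when the surroundings turn acid, Gpr65 was higher in GPR35-positive cells and Gpr4 did not pass. Gpr65, on chromosome 12, 98268635 to 98276722, was at 393, 355, 331 and 369 CPM in GPR35-positive and 158, 115, 47.6 and 83.0 CPM in GPR35-negative replicates 1 to 4. The groups were separated by the gap from 158 to 331 CPM. Gpr65 differed by 1.84 ± 0.32 on the log2 scale (SE; edgeR adjusted p = 0.00279), with an identity-scaled value of -0.44, and 18.1% of the 50-base windows of its transcript also occur in Gm47566. Gpr4, known from endothelium, had a log2 fold change of -1.72 ± 1.20 (adjusted p = 0.281), with its highest levels in GPR35-negative replicates 3 and 4.

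Gpr15, which steers T cells to the colon, was lower in GPR35-positive cells. It was at 0.723, 0.301, 2.32 and 0.707 CPM in GPR35-positive and 3.21, 33.8, 24.0 and 27.3 CPM in GPR35-negative replicates 1 to 4. GPR35-negative replicate 1 lay far below the other 3 of its group and still above every GPR35-positive library. Gpr15 differed by -4.43 ± 0.84 on the log2 scale (SE; edgeR adjusted p = 0.00402). In GPR35-negative libraries the T and innate lymphoid cell markers summed to 349, 645, 475 and 486 CPM, against 57.4, 58.7, 68.0 and 70.5 CPM in the GPR35-positive ones. In GPR35-positive cells 10 of 14 were lower (71.4%, against 19.5% of all tested genes) and 0 higher. With the animal as a block, where 2832 of all tested genes were lower and 2748 higher, 6 of the markers were lower and 1 higher. Of these markers Cd28 (254 ± 39.7 CPM, SD, n = 4) and Cd2 (141 ± 43.2 CPM) led in GPR35-negative libraries, whereas the T cell receptor complex genes Cd3e, Cd3d and Cd3g were at 4.97 ± 3.4, 3.21 ± 1.98 and 7.24 ± 4.57 CPM. Cd3e was at 4.19, 9.51, 4.88 and 1.30 CPM in GPR35-negative replicates 1 to 4, lowest in replicate 4, where Gpr15 was at 27.3 CPM. The part of T cell RNA, and that of plasma cells, in Gpr15 and Gpr174 was not tested. Exons of Gpr15 share 12.5% of their bases with Cpox on the opposite strand.

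Among the 3 class C orphan receptors, Gprc5b was lower in GPR35-positive cells and Gprc5a and Gprc5c did not pass. Gprc5b, a membrane protein induced by retinoic acid, was at 0.0933, 0, 0.449 and 0.293 CPM in GPR35-positive and 0.795, 1.19, 3.76 and 4.72 CPM in GPR35-negative replicates 1 to 4. These were low levels, without overlap, and GPR35-negative replicates 3 and 4 were the highest. Exons of Gprc5b share 13.1% of their bases with Iqck on the opposite strand. Gprc5b differed by -3.61 ± 1.13 on the log2 scale (SE; edgeR adjusted p = 0.0331), and the call was lost in 7 of the 12 fits that left out an animal or a library (adjusted p up to 0.141) and held only without replicate 2 (adjusted p = 0.0373), without GPR35-positive replicate 2 (adjusted p = 0.0380), without GPR35-positive replicate 3 (adjusted p = 0.0428), without GPR35-negative replicate 1 (adjusted p = 0.0293) and without GPR35-negative replicate 2 (adjusted p = 0.0395). The log2 fold changes were 0.036 (adjusted p = 0.960) for Gprc5a and 0.25 (adjusted p = 0.706) for Gprc5c.

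Of 19 tested orphan receptors outside these classes, 2 were higher in GPR35-positive cells (10.5%, against 18.4% of all tested genes) and 3 lower (15.8%, against 19.5%). The other 14 did not pass. With identity scaling 1 of the 19 was higher and 12 were lower, beside 73 and 12237 of all 14193 tested genes. Gpr141, an orphan receptor of myeloid cells, on chromosome 13, 19749680 to 19824336, had the largest log2 fold change among the tested members. It was at 152, 132, 93.5 and 120.5 CPM in GPR35-positive and 3.61, 0.238, 4.08 and 1.33 CPM in GPR35-negative replicates 1 to 4. Its lowest GPR35-positive library was thus at 93.5 CPM and its highest GPR35-negative one at 4.08 CPM. Gpr141 differed by 5.71 ± 0.65 on the log2 scale (SE; edgeR adjusted p = 3.92e-04), with an identity-scaled value of 3.13 (adjusted p = 0.00121). On the per-length scale it went from 0.674 ± 0.533 to 36.3 ± 7.13 CPM per kilobase, GPR35-negative to GPR35-positive.

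Gpr162, an orphan receptor, was at 7.98, 9.57, 6.34 and 6.49 CPM in GPR35-positive and 2.87, 4.16, 2.96 and 4.75 CPM in GPR35-negative replicates 1 to 4, without overlap. Gpr162 differed by 1.04 ± 0.31 on the log2 scale (SE; edgeR adjusted p = 0.0284), with an identity-scaled value of -1.56. The call was lost in 8 of the 12 fits that left out an animal or a library (adjusted p up to 0.119) and held only without replicate 4 (adjusted p = 0.0469), without GPR35-positive replicate 3 (adjusted p = 0.0470), without GPR35-negative replicate 2 (adjusted p = 0.0300) and without GPR35-negative replicate 4 (adjusted p = 0.0214), and was lost with the animal as a block (adjusted p = 0.0504). Gpr153 was at 1.59, 0.502, 2.57 and 3.12 CPM in GPR35-positive and 21.9, 16.5, 25.3 and 25.5 CPM in GPR35-negative cells. The lowest GPR35-negative library had 16.5 CPM and the highest GPR35-positive one 3.12 CPM. Gpr153 differed by -3.51 ± 0.51 on the log2 scale (SE; edgeR adjusted p = 0.00115). Gpr19 was at 3.4, 7.70, 3.97 and 5.24 CPM in GPR35-positive and 11.8, 8.62, 15.3 and 28.5 CPM in GPR35-negative cells, with GPR35-negative replicate 4 the highest and replicate 2 just above GPR35-positive replicate 2. Gpr19 differed by -1.66 ± 0.42 on the log2 scale (SE; edgeR adjusted p = 0.0148), and the call ended without replicate 3 (adjusted p = 0.0748) and without replicate 4 (adjusted p = 0.0763).

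Gpr165 was at 0, 0, 0.374 and 0.0732 CPM in GPR35-positive and 3.58, 3.09, 0.520 and 2.69 CPM in GPR35-negative replicates 1 to 4. GPR35-positive replicates 1 and 2 had no count, and GPR35-negative replicate 3 lay just above the GPR35-positive group. Gpr165 differed by -4.40 ± 1.35 on the log2 scale (SE; edgeR adjusted p = 0.0315), from -6.73 to -3.75 with an animal or a library left out. The call was lost in 9 of the 12 fits that left out an animal or a library (adjusted p up to 0.136) and held only without replicate 3 (adjusted p = 0.0150), without GPR35-positive replicate 3 (adjusted p = 0.0141) and without GPR35-negative replicate 3 (adjusted p = 0.0340), and was lost with the block (adjusted p = 0.0681). Gpr37l1, a glial receptor, did not pass (log2 fold change -3.69 ± 1.51, adjusted p = 0.0824), but reached 52.9 and 37.6 CPM in GPR35-negative replicates 3 and 4 and at most 3.17 CPM in the other 6 libraries. The glial and neuronal markers summed to 6.14, 6.12, 124 and 64.4 CPM in GPR35-negative replicates 1 to 4, so both were highest in the same 2 libraries.

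The other orphan receptors not past the threshold are given here with log2 fold change and adjusted p. Those above 0 were Gpr157 (1.77, 0.0790), Gpr82 (2.16, 0.0934), Gpr85 (2.0, 0.151), Gpr33 (3.09, 0.181), Gpr146 (0.92, 0.134), Gpr152 (1.55, 0.430) and Gpr160 (0.25, 0.453). Those below 0 were Gpr176 (-1.30, 0.0582), Gpr17 (-2.61, 0.107), Gpr182 (-3.57, 0.148), Gpr20 (-2.76, 0.158), Gpr27 (-2.33, 0.177) and Gpr171 (-0.27, 0.531). The ranges of Gpr157, Gpr82, Gpr85 and Gpr146 did not overlap between the groups although they missed the threshold. Gpr171, at 102 ± 23.9 and 123 ± 50.8 CPM, and Gpr160, at 68.2 ± 8.46 and 57.1 ± 21.7 CPM (SD, n = 4), were the most abundant of these. With the animal as a block, Gpr157 (adjusted p = 0.0324) and Gpr182 (adjusted p = 0.0429) passed.

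The Gpr names also cover proteins of Golgi, lysosome and other inner membranes. Of 7 tested protein genes grouped here under that heading, a grouping not examined in these data, 3 were higher in GPR35-positive cells and 1 lower. The pseudogene Gpr137b-ps was higher too. Counting the pseudogene, 50% were higher and 12.5% lower, against 18.4% and 19.5% of all tested genes. With identity scaling these 4 higher genes turned negative. Gpr137b, a lysosomal protein, was at 77.1, 81.9, 75.4 and 80.2 CPM in GPR35-positive and 36.3, 21.4, 21.9 and 25.3 CPM in GPR35-negative replicates 1 to 4. The groups stood well apart, and Gpr137b differed by 1.58 ± 0.18 on the log2 scale (SE; edgeR adjusted p = 4.01e-04), with an identity-scaled value of -0.87. Its transcribed pseudogene Gpr137b-ps was at 123, 114, 98.8 and 111 CPM in GPR35-positive and 52.1, 32.8, 27.0 and 40.1 CPM in GPR35-negative cells, a difference of 1.56 ± 0.20 on the log2 scale (SE; edgeR adjusted p = 7.17e-04) with an identity-scaled value of -0.88. The pair cannot be fully separated, since 28.6% of the 50-base windows of Gpr137b and 29.5% of those of Gpr137b-ps also occur elsewhere, nearly all in each other.

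Gpr180 went the other way, at 25.5, 21.6, 25.6 and 26.8 CPM in GPR35-positive and 51.6, 65.9, 63.2 and 58.7 CPM in GPR35-negative replicates 1 to 4. GPR35-negative libraries had at least 51.6 CPM and GPR35-positive ones at most 26.8 CPM, and Gpr180 differed by -1.27 ± 0.13 on the log2 scale (SE; edgeR adjusted p = 2.59e-04). Gpr107, a Golgi protein, had a smaller difference, 70.7 ± 6.21 against 41.5 ± 5.19 CPM (SD, n = 4; log2 fold change 0.77 ± 0.13, adjusted p = 0.00234; -1.73 with identity scaling). Gpr137 was at 22.8 ± 1.04 against 16.4 ± 2.17 CPM (log2 fold change 0.48 ± 0.16, adjusted p = 0.0395; -2.08 with identity scaling), a call that was lost in 11 of the 12 fits that left out an animal or a library (adjusted p up to 0.137) and held only without GPR35-negative replicate 1 (adjusted p = 0.0312) and that the block also ended (adjusted p = 0.0675). Gpr137 shares 15.4% of its exon bases with Bad on the opposite strand.

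Gpr108, the Golgi relative of Gpr107, was among the most abundant members not past the threshold. It was at 107, 125, 98.8 and 98.4 CPM in GPR35-positive and 109.7, 133, 115 and 124 CPM in GPR35-negative replicates 1 to 4, with overlapping groups and a fold change of -0.17 ± 0.12 on the log2 scale (SE; edgeR adjusted p = 0.294). So Gpr107 was higher in GPR35-positive cells in all 4 animals and Gpr108 in none. Gpr155, a lysosomal cholesterol sensor, and Gpr89, an anion channel of the Golgi, had log2 fold changes of -0.46 (adjusted p = 0.0774) and -0.22 (adjusted p = 0.537).

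Within animals, the log2 CPM difference of the larger calls varied in size but not in sign. Gpr141 differed by 5.37, 8.79, 4.50 and 6.44 in replicates 1 to 4 and Htr7 by 4.71, 8.39, 4.12 and 7.65. For Adgre1 the differences were 0.81, 1.81, 3.30 and 3.44, smallest in replicate 1, whose GPR35-negative library had the highest macrophage identity sum of its group. Gpr34 had 0.53, 1.33, 2.61 and 3.07 and Gpr65 1.31, 1.63, 2.80 and 2.15, with the smallest value in replicate 1 for Gpr34 and for Gpr65 as well. Gpr137b differed by 1.08, 1.93, 1.78 and 1.66, also with the smallest value in replicate 1.

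**Figure D5:**
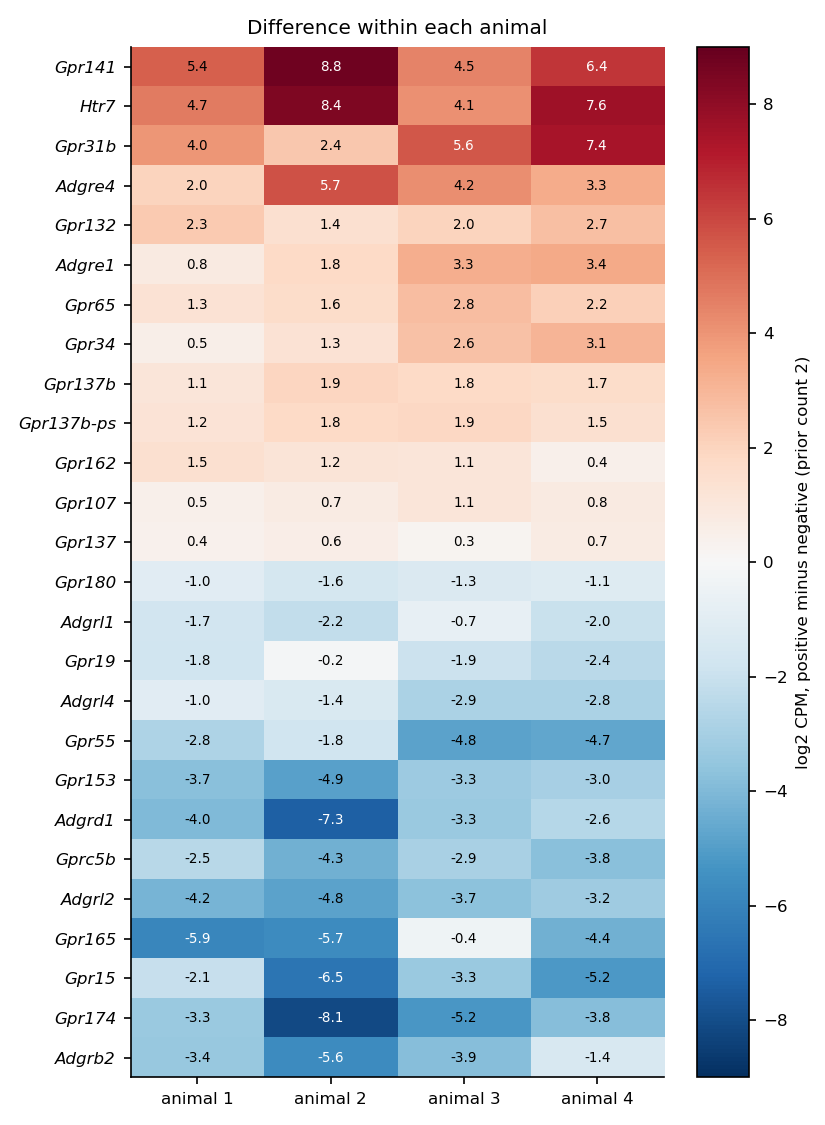
Difference in log2 CPM, GPR35-positive minus GPR35-negative, within each of the 4 animals, for 26 of the 27 members that passed the threshold, as a coloured grid with the values written in, from log2 CPM with a prior count of 2. Each of the 26 has 1 colour in all 4 animals; Adgre1 is palest in replicate 1.

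Genes of the G proteins through which these receptors act were found on both sides of the comparison. All values here are log2 fold changes, and with identity scaling those that passed were lower: 10 of 14 alpha, 12 of 14 beta and gamma subunits and 5 of 7 receptor kinases and arrestins. Of all 14193 tested genes 12237 were lower with that scaling. Of 14 tested alpha subunits 3 were higher in GPR35-positive cells and 3 lower: Gna13 (1.74 ± 0.23; adjusted p = 8.42e-04; -0.72 identity-scaled), which acts on the cytoskeleton, and Gnai2 (0.83 ± 0.12; adjusted p = 0.00128; -1.71 identity-scaled), which lowers cyclic AMP, rose, and Gnas (-1.09 ± 0.18; adjusted p = 0.00207), the alpha subunit of Gs, fell. Of 14 beta and gamma subunits 4 were higher and 2 lower, with Gngt2 at 2.77 ± 0.19 (adjusted p = 3.99e-05), Gng10 at 1.33 ± 0.16 (adjusted p = 5.35e-04; -1.19 identity-scaled) and Gnb4 at -2.72 ± 0.39 (adjusted p = 0.00115). Of 7 receptor kinases and arrestins, which switch off activated receptors, 2 were higher and 2 lower, with Grk3 at 3.05 ± 0.43 (adjusted p = 0.00105), Arrb2 at 1.84 ± 0.40 (adjusted p = 0.00725; -0.35 identity-scaled) and Grk5 at -1.46 ± 0.29 (adjusted p = 0.00472). The shares without identity scaling are to be read beside the 38.0% of all tested genes that passed.

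Among 15 tested RGS proteins, which speed up GTP hydrolysis by alpha subunits, 5 were higher in GPR35-positive cells (33.3%) and 3 lower (20%). These and the counts below are to be read beside the 18.4% higher and 19.5% lower of all tested genes. With identity scaling 1 RGS gene was higher and 12 were lower, beside 73 and 12237 of all 14193 tested genes. Rgs1 (3.46 ± 0.44; adjusted p = 6.82e-04), Rgs2 (2.38 ± 0.24; adjusted p = 2.47e-04; -0.028 identity-scaled) and Rgs10 (1.19 ± 0.21; adjusted p = 0.00271; -1.21 identity-scaled) were higher. The RGS genes together summed to 4599 to 5937 CPM in GPR35-positive and 755 to 1166 CPM in GPR35-negative libraries. Their log2 fold changes ran from -4.09 to 3.46 with a median of -0.45, so this sum does not describe the typical RGS gene. Of 7 adenylate cyclases, Adcy7 was higher (1.44 ± 0.26; adjusted p = 0.00335; -0.92 identity-scaled) and Adcy2 lower (-4.42 ± 0.96; adjusted p = 0.00719). Ligands and partners of adhesion receptors had 2 of 11 higher and 3 lower, with Cd81 at 0.98 ± 0.14 (adjusted p = 0.00118; -1.56 identity-scaled), a tetraspanin, and Col3a1 at -3.23 ± 0.63 (adjusted p = 0.00431), collagen III, which is also on the fibroblast list here. With identity scaling Rgs1 (1.24), Grk3 (0.81) and Gngt2 (0.18) kept a positive log2 fold change, while the other named pathway genes were negative, against -2.63 for the median gene.

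Some members are neighbours on the genome, and no neighbouring pair had both members past the threshold. On chromosome 8, Adgrg1 and Adgrg3 lie 2904 bases apart, and neither passed. Adgrg3 had a log2 fold change of 0.037 ± 1.08 and Adgrg1 of -1.96 ± 0.73. On chromosome X, Gpr34 and Gpr82 lie 5274 bases apart. Both were higher on average in GPR35-positive cells, Gpr34 past the threshold (1.60) and Gpr82 not (2.16, adjusted p = 0.0934), and the difference between the members of these pairs was not tested. Gpr18 and Gpr183 lie 36442 bases apart on chromosome 14, inside the gene Ubac2 on the other strand, and neither passed.

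Of the 12 members without enough counts for a test, 10 are given by their lowest and highest counts, first in GPR35-positive and then in GPR35-negative libraries: Adgrg2 (0 to 21 and 0 to 51), Gpr37 (0 to 24 and 0 to 32), Gpr149 (0 and 0 to 40), Gpr161 (0 to 22 and 0 to 41), Gpr1 (0 to 5 and 0 to 81), Gpr21 (0 to 16 and 0 to 51), Gpr62 (0 to 6 and 1 to 34), Gpr173 (0 to 3 and 0 to 42), Gpr39 (3 to 15 and 0 to 34) and Htr2b (2 to 8 and 0 to 40). All 10 had their highest CPM in a GPR35-negative library. The highest raw count of each was in a GPR35-negative library as well, although those libraries had the lower totals (16.0 to 30.1 M counts). The like share among all untested genes was not examined. A count of 0 allows up to 3 counts in a library of that depth, and counts are reads with no molecular identifiers, so such limits cover counting error only.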

How the data were processed

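Read counts per gene were deposited for 8 RNA libraries, made with SMART-Seq v4 and Nextera XT per the labels' protocols; these kits mark no strand and use no molecular identifiers. Reads were handled with STAR 2.5.2a and R 3.4.2 against mm10, per the submitters' processing notes; which program counted them is not given in the sources used here. Raw counts for 14980 genes are in the deposited table, of which 9 had no symbol and held 0.0179% of counts, and a gene length, used only for levels per kilobase. Every listed gene had at least 18 counts in some library, so the table holds no gene below that.

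The main test was edgeR 4.0.16 in R 4.3.3: filterByExpr (minimum count 10, total 15) left 14193 genes, scaled by TMM, with a robust quasi-likelihood F-test, no block, Benjamini-Hochberg adjustment over all of them and a threshold of 0.05. A fold change is the GPR35-positive level over the GPR35-negative one, on the log2 scale, and the SE is the fold change divided by the square root of F. CPM use TMM sizes, and log2 CPM a prior count of 2. Alternatives were other scalings, including one to 20 macrophage identity genes, other filters, DESeq2 1.42.0, limma 3.58.1 voom, thinning, the animal block and leaving out animals or libraries. The labels state no model, so the main test left out the pairing by animal, which only the fits with the block use. Nothing in the labels says the 8 samples came from separate preparations beyond the animals, so p-values measure the spread between these libraries.

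The labels give both populations of an animal the same number, so the numbers pair the libraries; after subtracting group means, replicates 1 to 4 had correlations across genes between the 2 libraries of the animal of 0.205, 0.206, 0.432 and 0.0637, and between libraries of different animals the largest were 0.104, 0.104, 0.237 and 0.237, so replicate 4 did not correlate best within its animal. No 2 libraries of a group agreed within sampling noise (smallest chi-square per degree of freedom 26.1). On simulated counts for this comparison over 14003 genes, the test recovered 27.1% of genes changed by 1, 72.4% by 2 and 85.7% by 4 on the log2 scale, and 3.97% of calls were false. Only 70, 58 and 70 genes were changed by these sizes, with no animal effect and no mixture of cell types. In the real data 38.0% of tested genes were called, so the simulated share of false calls cannot be carried over to them.

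Members were chosen by symbol, and the members and lists were chosen with earlier results of these data known. Named are Gpr35, all members except 4 that are not reported here and, of each pathway list, up to 3 genes past the threshold with the smallest p; values in every library are given for called members averaging 1 CPM or more with a 2-fold difference and for the 3 most abundant members not past it. Symbols were matched to GRCm38.p6 for coordinates (73 of 73) and to RefSeq promoters of that build (52 of 73).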

Additional observations from a re-analysis of the deposited data

Results flagged for a closer look

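In 8 of the 124 groups of 4 libraries examined, 1 library stood apart from the other 3 by more than Dixon's 95% limit; about 1 in 20 such groups would do so by chance. Adgrl3 in GPR35-negative replicate 3 was at 2.80 CPM, the others at 0 to 0.0306 CPM. Gprc5a stood out in GPR35-positive replicate 2, at 10.1 CPM against 4.41 to 4.83 CPM, and in GPR35-negative replicate 3, at 11.6 CPM against 3.33 to 4.55 CPM. Gpr84 in GPR35-positive replicate 1 was at 47.8 CPM, with the others at 34.1 to 35.4 CPM. Gpr152 in GPR35-negative replicate 2 was at 2.56 CPM, with the others at 0 to 0.153 CPM. At low levels, Gpr33 in GPR35-negative replicate 3 had 0.320 CPM and the others 0. Gpr27 in GPR35-positive replicate 2 had 0.435 CPM against 0.0732 to 0.125 CPM, and Gpr182 in GPR35-positive replicate 3 had 0.474 CPM against 0 to 0.0244 CPM. None of these genes passed the threshold in the comparison of the populations.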

How the results depend on the processing

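Of 643 values of 26 of the 27 called members under other settings, 545 kept their direction and their call, 80 lost the call and 18 changed sign. Scaled to the macrophage identity genes, 42 members passed (4 higher, 38 lower) and 64 pathway genes. Of all tested genes 73 were then higher and 12237 lower. With the replicate block added 44 members passed (6 higher, 38 lower), beside 103 higher and 11638 lower of all tested genes. The median of all genes was -2.63 with identity scaling and -2.39 with the block added. With the replicate block alone 30 members passed, 24 of the 27 kept their call, and Gpr137 (0.0675), Gpr162 (0.0504) and Gpr165 (0.0681) lost it (adjusted p); it ended no other member's call. DESeq2 called 36 members (17 higher, 19 lower) without the block and 40 (22 higher, 18 lower) with it. Of all tested genes it called 6586 and 6908, where the main test called 5387. The count of lower members was 7 to 14 with an animal or a library left out, lowest without replicate 4 (7) and without replicate 3 (8), and 19 to 29 members passed in all. Over all tested genes 2774 were lower in the main test, 1681 without replicate 4 and 1712 without replicate 3. The cause of these shifts was not tested.

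Log2 fold changes turned sign as follows. With identity scaling they were Adgre1 (-0.038), Adgrv1 (-0.68), Adgrf1 (-1.97), Adgre5 (-2.43), Adgrg3 (-2.67), Gprc5c (-1.99), Gprc5a (-2.81), Gpr132 (-0.48), Gpr34 (-0.51), Gpr183 (-1.75), Gpr137b (-0.87), Gpr137b-ps (-0.88), Gpr107 (-1.73), Gpr137 (-2.08), Gpr82 (-0.076), Gpr157 (-0.098), Gpr152 (-0.69), Gpr162 (-1.56), Gpr146 (-1.58), Gpr160 (-2.10), Gpr65 (-0.44), Gna13 (-0.72), Gnai2 (-1.71), Gng10 (-1.19), Arrb2 (-0.35), Rgs2 (-0.028), Rgs10 (-1.21), Adcy7 (-0.92), Cd81 (-1.56), Hsd3b7 (-1.55), Cyp27a1 (-0.56) and Ch25h (-1.51). With identity scaling and the replicate block they were Adgre1 (-0.044), Adgrf1 (-0.95), Adgre5 (-2.27), Adgrg3 (-1.36), Gprc5c (-1.94), Gprc5a (-2.21), Gpr132 (-0.27), Gpr34 (-0.50), Gpr183 (-1.64), Gpr137b (-0.76), Gpr137b-ps (-0.79), Gpr107 (-1.61), Gpr137 (-1.90), Gpr162 (-1.35), Gpr146 (-1.15), Gpr160 (-2.06) and Gpr65 (-0.41). With library size only they were Adgre5 (-0.17), Adgrg3 (-0.26), Gprc5c (-0.029), Gprc5a (-0.28) and Gpr160 (-0.024), with upper-quartile scaling Adgre5 (-0.018), Adgrg3 (-0.10) and Gprc5a (-0.099), with limma voom Adgrg6 (0.082), Gprc5a (-0.43) and Gpr18 (0.12) and with the replicate block Gpr18 (0.017). With an animal or a library left out, the ranges that crossed 0 were Adgrf1 (-0.40 to 1.89), Adgrg3 (-0.38 to 0.71), Adgrg6 (-0.27 to 0.20), Gprc5c (-0.011 to 1.08), Gprc5a (-0.46 to 0.69) and Gpr18 (-0.43 to 0.39). Depth limits the members below about 1 CPM, such as Adgrb2, whose values rest on few reads.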
